A study of Mus musculus with 12 samples.

Results

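Heat shock chaperone genes were followed in RNASeq of splenic T cells. The set held 10 genes, which are Hspa1a, Hspa1b, Hspa8, Hspa4, Hsph1, Dnajb1, Hsp90aa1, Hsp90ab1, Hspd1 and Hspe1. They were taken from the 49315 rows of the raw count table by matching each Ensembl identifier to its symbol in the GRCm38 annotation, and all 10 were found. The study asked how miR-214 shapes T cell responses to angiotensin II (Ang II), a peptide hormone whose infusion raises blood pressure. There were 4 groups of 3 mice each, with 1 library per mouse. WT sham mice and WT Ang II mice carried an intact miR-214 gene, and miR-214-/- sham mice and miR-214-/- Ang II mice lacked it in every cell of the body, so the deletion was not limited to T cells. Male mice 12 weeks of age received Ang II at 490 ng/kg per day, or vehicle in the sham groups, for 14 days from osmotic minipumps. The study's methods describe the WT donors of spleen T cells for its transfer experiment as littermates of the miR-214-/- mice. They do not say so for the mice sequenced, and the strain of the mice sequenced was not given in the sources used here. T cells were enriched from spleen by magnetic removal of other cells.

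Chaperones hold unfolded or newly made proteins and help them reach their folded state. In the cytosol, HSP70 proteins bind short exposed stretches of a client, J-proteins such as the product of Dnajb1 bring the client and start ATP use, and exchange factors of the HSP110 class, the products of Hsph1 and Hspa4, release the spent nucleotide. HSP90 takes clients such as kinases and steroid receptors at a later step, with the help of co-chaperones, and the chaperonin made from Hspd1 and Hspe1 folds proteins inside mitochondria. Hspa1a and Hspa1b are the inducible HSP70 genes, while Hspa8 is the constitutive member that lymphocytes use at rest. Under heat or other protein stress, the factor HSF1 binds inverted repeats of the letters GAA in promoters and raises transcription of many of these genes. HSP90 and HSP70 act in T cells on signalling kinases such as LCK.

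The positions of the genes group some of them together. Hspa1a (ENSMUSG00000091971, chr17:34969190-34972156, minus strand of GRCm38) and Hspa1b (ENSMUSG00000090877, chr17:34956436-34959238, minus strand) are neighbours, each annotated with 1 transcript. Hspd1 (ENSMUSG00000025980, chr1:55077835-55088243, minus strand) and Hspe1 (ENSMUSG00000073676, chr1:55088132-55091307, plus strand) lie head to head and overlap at their first bases. Windows of 150 bases were taken from the longest annotated transcript of each gene. Of these, 39.7% for Hspa1a and 40.5% for Hspa1b also occurred in another gene, mostly the other of the pair. For Hsp90aa1 the share was 36.2%, for Hspa8 21.9% and for Hspd1 18.6%, mainly in the pseudogenes Gm12346, Gm15459 and Hspd1-ps3. In Hspa4, Hsph1, Dnajb1, Hsp90ab1 and Hspe1 it was 0%. The authors counted reads with a unique place in the genome, so the levels of Hspa1a, Hspa1b and, to a lower degree, of Hsp90aa1, Hspa8 and Hspd1 rest on the parts of these genes that differ from their copies. The predicted antisense gene Gm20481 over Hspa1a had 0 counts in all 12 libraries. The strand setting of the counting is not known, and without strand, reads over both genes could have been counted for neither. The levels of Hspa1a, and the counts at the shared first bases of Hspd1 and Hspe1, are uncertain in this respect.

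Promoter windows of 300 bases from RefSeq (GRCm38.p6), each placed around a transcript start in that annotation, were at hand for 7 of the 10 genes. Hspa8, Hsp90aa1 and Hsp90ab1 had none. The Hspd1 window shown and the second Dnajb1 window lie inside the gene as GENCODE draws it, past the outermost start. The windows shown are those of the gene pairs and of Hsph1, the gene on which the comparisons below turn. Capitals mark matches to GAANNTTC or TTCNNGAA, the core pair of GAA repeats read in either arrangement. Each motif is its own reverse complement, so both strands are covered, and the motifs can overlap each other.
Hspa1a, chr17:34972107-34972406, minus strand: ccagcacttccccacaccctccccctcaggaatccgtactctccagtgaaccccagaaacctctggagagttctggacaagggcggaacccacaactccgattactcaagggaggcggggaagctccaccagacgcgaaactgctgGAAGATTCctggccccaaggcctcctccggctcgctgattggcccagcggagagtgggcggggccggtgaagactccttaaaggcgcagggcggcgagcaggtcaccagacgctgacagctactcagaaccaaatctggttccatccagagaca
Hspa1b, chr17:34959189-34959488, minus strand: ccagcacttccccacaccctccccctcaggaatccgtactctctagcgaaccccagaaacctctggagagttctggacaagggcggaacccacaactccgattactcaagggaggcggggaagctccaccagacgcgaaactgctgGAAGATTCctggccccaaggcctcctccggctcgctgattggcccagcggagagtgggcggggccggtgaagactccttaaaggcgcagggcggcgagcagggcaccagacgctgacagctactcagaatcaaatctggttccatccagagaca
Hspe1, chr1:55087898-55088197, plus strand: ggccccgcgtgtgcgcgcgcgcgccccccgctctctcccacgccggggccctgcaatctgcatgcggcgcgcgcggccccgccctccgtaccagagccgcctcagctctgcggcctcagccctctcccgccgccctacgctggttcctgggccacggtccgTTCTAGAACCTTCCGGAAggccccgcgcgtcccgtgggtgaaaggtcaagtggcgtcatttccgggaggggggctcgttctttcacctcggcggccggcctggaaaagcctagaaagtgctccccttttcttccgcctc
Hspd1, chr1:55087883-55088182, minus strand: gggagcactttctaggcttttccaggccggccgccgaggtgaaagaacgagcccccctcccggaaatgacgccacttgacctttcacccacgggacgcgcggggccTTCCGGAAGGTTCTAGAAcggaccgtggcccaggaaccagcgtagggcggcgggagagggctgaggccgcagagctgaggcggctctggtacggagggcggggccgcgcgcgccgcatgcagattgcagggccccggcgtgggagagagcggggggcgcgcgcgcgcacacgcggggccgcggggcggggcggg
Hsph1, chr5:149636287-149636586, minus strand: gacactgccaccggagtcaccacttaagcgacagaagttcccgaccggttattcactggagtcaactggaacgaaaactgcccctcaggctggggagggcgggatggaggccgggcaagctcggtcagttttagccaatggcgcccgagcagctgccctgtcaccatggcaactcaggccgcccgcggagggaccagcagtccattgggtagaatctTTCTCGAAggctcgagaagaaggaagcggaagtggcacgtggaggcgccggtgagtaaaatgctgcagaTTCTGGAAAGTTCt

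The Hspa1a and Hspa1b windows differed at 4 of 300 positions and held 1 match each, at the same position. The Hspe1 window and the Hspd1 window above are opposite strands of nearly the same stretch and hold the same 3 overlapping matches. Hsph1 had 3 matches, of which 2 overlap near the end of the window. A further Hspd1 window, both Dnajb1 windows and the Hspa4 window held 0 matches. Among 32851 RefSeq promoter windows of the same length, 7.86% held GAANNTTC, 8.52% held TTCNNGAA, 15.1% held either, and 1.96% held 2 or more matches. A match is a description of letters, and no binding was measured here.

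Each library held 21126874 to 29605988 counts in total, and the 10 genes had between 39 and 80964 counts per library. The T cell label was checked on 12 markers such as Cd3e, Trac and Lck, and all 12 were detected in every library, with a summed level of 3581 to 6105 CPM (counts scaled to the library size and by TMM over the 12 libraries). Markers of other cells were present too. The summed level of 12 neutrophil genes was 203 to 260 CPM in WT sham, 1149 to 3401 in WT Ang II, 248 to 981 in miR-214-/- sham and 636 to 3069 in miR-214-/- Ang II. With the edgeR quasi-likelihood test at an adjusted p under 0.05, all 12 of these and all 16 cell cycle genes rose with Ang II in WT. Of 12 T cell markers, 10 fell there, where 18.8% of all tested genes passed. In miR-214-/- 0 of them passed, but 0% of all tested genes did, so that count does not set the lists apart. Median log2 fold changes in miR-214-/- were 1.43 for neutrophil, 1.23 for red-cell precursor, 0.54 for cell cycle and -0.01 for T cell genes. Red-cell precursor genes, of which 6 of 11 rose by edgeR in WT, summed to 418 to 594 CPM in WT sham. In replicates 1, 2 and 3 of WT Ang II they summed to 5828, 2790 and 1480 CPM. In miR-214-/- they summed to 362 to 713 CPM in sham, and to 933, 4735 and 668 CPM in replicates 1, 2 and 3 of Ang II. Cell cycle genes summed to 2086 CPM in miR-214-/- Ang II replicate 1, against 1103 and 1157. In bulk RNA of this kind, fewer cells of a type and less RNA per cell cannot be told apart, and the part of these lists in the values below was not tested. The microRNA itself is not measured by poly(A) counts, so the deletion was not checked here.

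Cytosolic HSP90 and constitutive HSP70 dominated the set. Per kilobase of exon, Hsp90ab1, which codes for the constitutive HSP90 beta, had the highest level, with a mean of 727 CPM per kilobase ± 132 (SD, n = 12 libraries). Hspa8 followed with 431 ± 82.9 and Hsp90aa1, the HSP90 alpha gene, with 166 ± 40.4. The mitochondrial chaperonin gene Hspd1 reached 108 ± 26.5 and its partner Hspe1 81.7 ± 12.1 on the same scale. Levels per kilobase were 46.7 ± 3.34 for Hspa4, 44.9 ± 18.6 for Dnajb1 and 34.7 ± 16.3 for Hsph1. The inducible HSP70 genes were the lowest, with 8.08 ± 8.80 for Hspa1b and 2.49 ± 2.93 for Hspa1a.

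**Figure D1:**
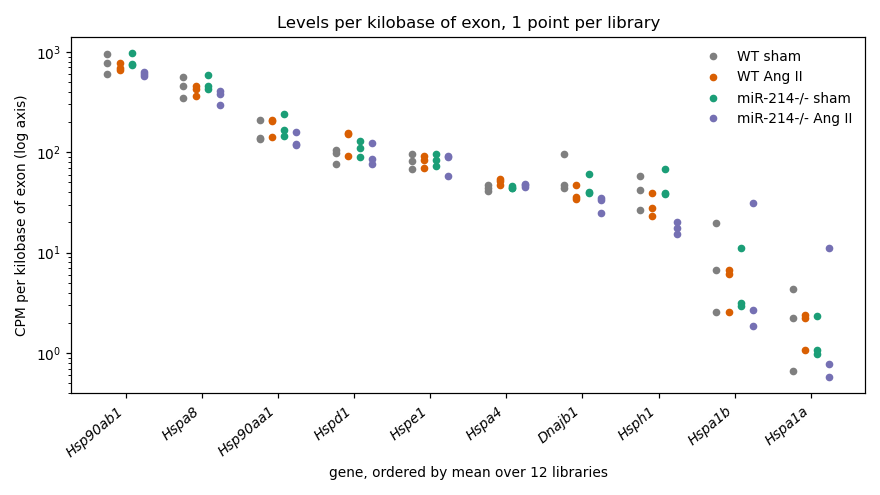
Levels of the 10 chaperone genes in CPM per kilobase of exon on a log axis, 1 point per library, colored by group and ordered by the mean over 12 libraries. Hsp90ab1 sits at the top between 574 and 966, and Hspa1a and Hspa1b have the lowest means and the widest spread.

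The order held in all 12 libraries between Hsp90ab1 and Hspa8, Hspa8 and Hsp90aa1, Hsp90aa1 and Hspd1, Hspe1 and Hspa4, and Hspa1b and Hspa1a. It held in 11 of 12 libraries for Hspd1 above Hspe1, Dnajb1 above Hsph1, and Hsph1 above Hspa1b. Hspa4 was above Dnajb1 in 9 of 12, so these neighbours did not differ beyond their spread. With the longest transcript as the length, Hspe1 (125) stood above Hspd1 (118) and Hsph1 (52.9) above Dnajb1 (48.0), so those 2 orders depend on the gene model.

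The genes varied among mice of the same group far more for inducible HSP70 than for any other member. Hspa1b had 19.0, 7.22 and 55.0 CPM in the 3 WT sham libraries and 7.13, 19.0 and 17.1 CPM in the WT Ang II libraries. In miR-214-/- it had 8.72, 8.22 and 30.9 CPM in sham and 86.7, 7.45 and 5.24 CPM in Ang II. The highest value of all, in miR-214-/- Ang II replicate 1, came from the same group as the lowest, and all 4 groups overlapped.

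Hspa1a followed the same course at a lower level. It had 6.59, 1.98 and 12.98 CPM in WT sham, 3.16, 6.63 and 7.16 CPM in WT Ang II, 2.91, 3.21 and 6.91 CPM in miR-214-/- sham, and 33.0, 2.32 and 1.70 CPM in miR-214-/- Ang II. The ratio of the highest to the lowest library within miR-214-/- Ang II was 19.4 for Hspa1a and 16.6 for Hspa1b. The SD of log2 CPM within groups was 1.47 for Hspa1b and 1.42 for Hspa1a. Of the 16770 genes tested over all libraries, 98.8% and 98.6% had a lower SD, and the median SD was 0.22. At the other end stood Hspa4, the HSP110-class gene with a steady level, with an SD of 0.08 and 5.02% of the tested genes below it. The SD was 0.43 for Hsph1, 0.40 for Dnajb1, 0.33 for Hspd1, 0.32 for Hsp90aa1, 0.26 for Hspa8 and Hspe1, and 0.21 for Hsp90ab1.

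**Figure D2:**
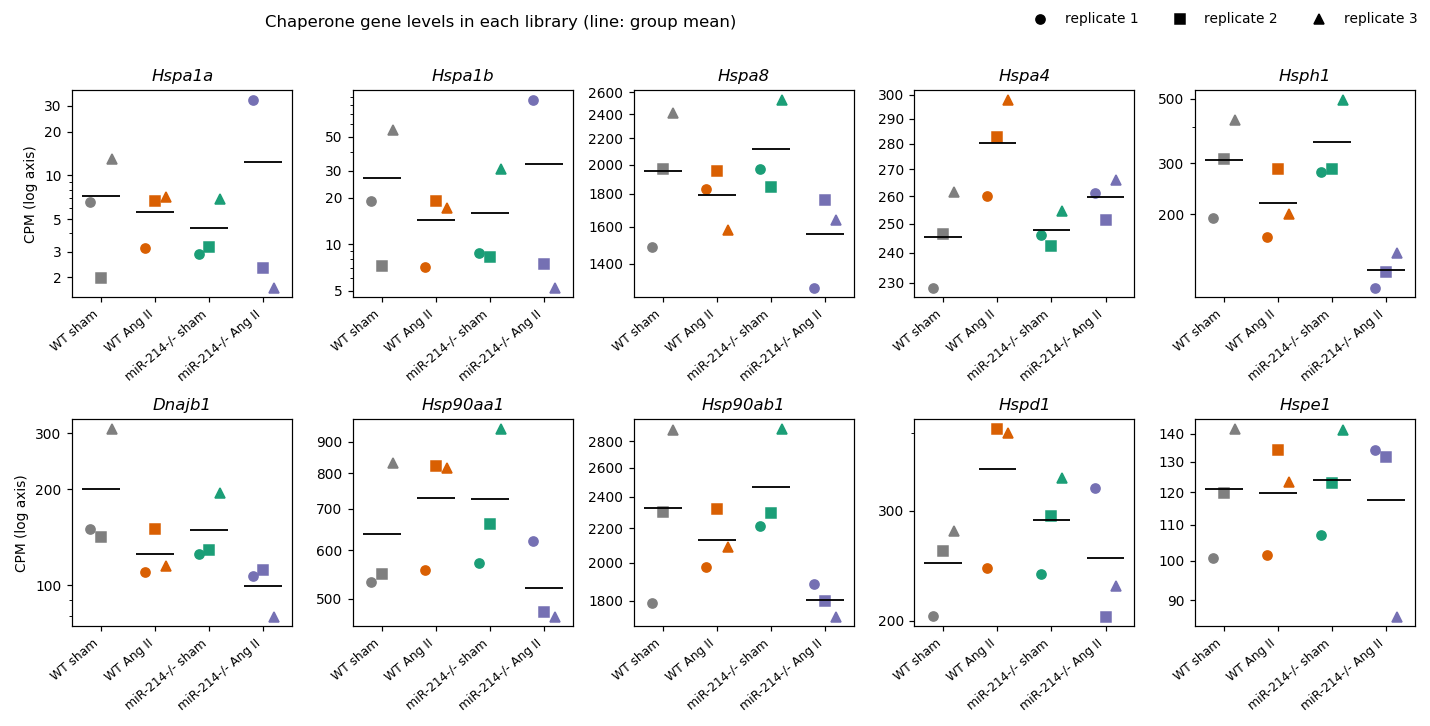
CPM of each chaperone gene in the 12 libraries on a log axis that differs between panels, with groups along the x axis, the replicate number as the marker shape and the group mean as a line. Replicate 3 of both sham groups is the highest point of its group in all 10 panels, and the Hsph1 libraries of miR-214-/- Ang II (112 to 147 CPM) lie below every other library.

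The same mice were high for many members. WT sham replicate 3 had the highest level of its group for 10 of 10 chaperone genes, and so did miR-214-/- sham replicate 3. Of all tested genes, 35.5% and 29.4% were highest in these libraries. WT Ang II replicate 1 had the lowest level for 9 of 10 genes, where 40.4% of tested genes were lowest, and WT Ang II replicate 2 the highest for 8 of 10, where 38.0% were highest. In miR-214-/- Ang II the members split, since replicate 1 was highest for 6 and lowest for 2.

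As a mean of log2 CPM over the 10 genes, the WT sham libraries had 7.44, 7.34 and 8.22 and the WT Ang II libraries 7.22, 7.81 and 7.66. The miR-214-/- sham libraries had 7.36, 7.44 and 8.05 and the miR-214-/- Ang II libraries 7.90, 7.11 and 6.94. In each genotype, sham replicate 3 stood above all 3 Ang II libraries and the other sham libraries lay among them. The 12 immediate early genes, which are known to respond within minutes to stimulation or handling of cells, summed to 1996 CPM in WT sham replicate 3, the lowest of its group, and to 2451 CPM in miR-214-/- sham replicate 3, the middle of its group.

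**Figure D3:**
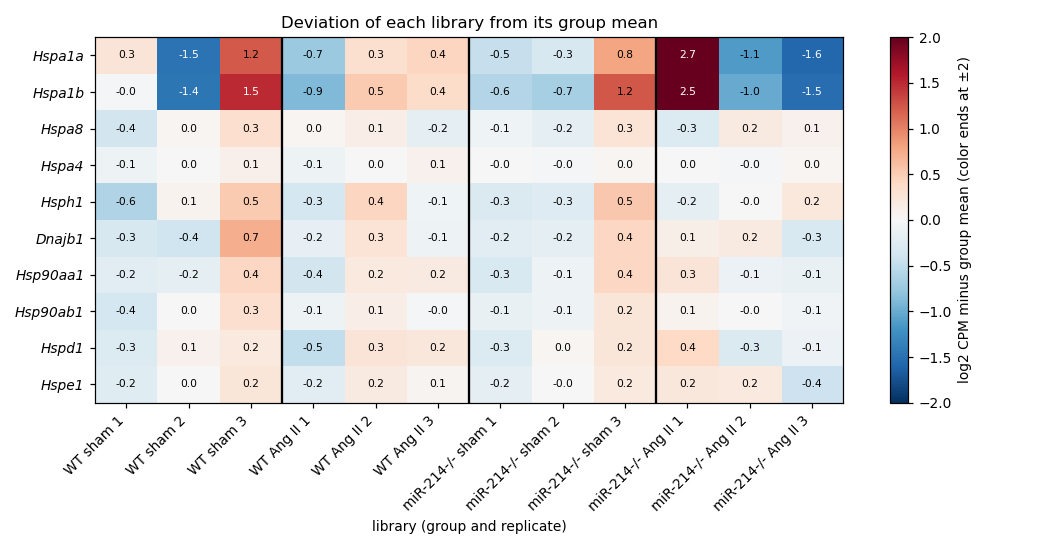
Deviation of each library's log2 CPM from the mean of its group for the 10 genes, with libraries along the x axis, red for above and blue for below the mean. The columns of replicate 3 in both sham groups are red or near white for all genes, and miR-214-/- Ang II replicate 1 is red for Hspa1a and Hspa1b and blue for Hspa8 and Hsph1.

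Deviations from the group means were compared for 6 gene pairs chosen for their biology, over 12 libraries, with permutation tests and Benjamini-Hochberg adjustment over the 6 pairs. The permutations treated the 12 deviations as free values although the group means had been subtracted, so the p-values for all 6 pairs tend to be too small. The twin genes Hspa1a and Hspa1b moved together most closely (Pearson's r = 0.983, permutation p = 1e-05, adjusted p = 6e-05, Spearman's rho = 0.986, permutation p = 1e-05, the smallest that 100000 permutations can give). For each pair, r was computed again without the 2 libraries farthest from the median of the first gene named, so the libraries left out differ between pairs. Here they were miR-214-/- Ang II replicates 1 and 3, and r was 0.972. The part of the shared sequence in this closeness was not tested. Hspa8 and its exchange factor Hsph1 had r = 0.842 (permutation p = 0.00087, adjusted p = 0.00174, rho = 0.790, permutation p = 0.00322). Without WT sham replicate 1 and miR-214-/- Ang II replicate 1, r was 0.788, with replicate 3 of both sham groups kept.

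The HSP90 genes Hsp90aa1 and Hsp90ab1 had r = 0.826 (permutation p = 0.00042, adjusted p = 0.00126, rho = 0.860, permutation p = 0.00058), and r = 0.653 without WT sham replicate 3 and miR-214-/- sham replicate 3. For the head-to-head genes Hspd1 and Hspe1, r was 0.681 (permutation p = 0.0168, adjusted p = 0.0168, rho = 0.629, permutation p = 0.0329), and 0.590 without replicate 1 of WT Ang II and of miR-214-/- Ang II. For Hspa1b and its J-protein gene Dnajb1, r was 0.686 (permutation p = 0.0134, adjusted p = 0.0160, rho = 0.671, permutation p = 0.0191), and 0.691 without miR-214-/- Ang II replicate 1 and WT sham replicate 3. Hsp90aa1 and Hsph1 had r = 0.711 (permutation p = 0.0114, adjusted p = 0.0160, rho = 0.720, permutation p = 0.0105), which dropped to 0.454 without the replicate 3 libraries of both sham groups and so rests on them.

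In miR-214-/- T cells, Hsph1 had the largest difference between Ang II and sham that did not rest on a single library. This comparison asks what the infusion does to chaperone transcripts where miR-214 is missing. Hsph1, which codes for HSP110, had 280, 286 and 495 CPM in the sham libraries and 112, 127 and 147 CPM in the Ang II libraries. All 3 Ang II libraries lay below all 3 sham libraries. The log2 fold change was -1.45 (SE 0.24, 95% interval -2.01 to -0.89), a level 0.366 times that of sham. By edgeR the unadjusted p was 4.74e-04 and the adjusted p 0.218, so it did not pass, and by DESeq2 it fell with an adjusted p of 1.01e-07. Leaving out each library in turn gave edgeR log2 fold changes between -1.60 and -1.13 and adjusted p between 0.219 and 0.697.

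Hsp90ab1 had 2213, 2293 and 2898 CPM in miR-214-/- sham and 1885, 1797 and 1722 CPM in Ang II, with no overlap. Its log2 fold change was -0.45 (SE 0.17, edgeR adjusted p = 0.377, DESeq2 adjusted p = 0.0367), so it fell by DESeq2 alone. Without miR-214-/- sham replicate 3 the value was -0.32. Dnajb1, the main J-protein partner of inducible HSP70, had 125, 129 and 195 CPM in sham and 107, 112 and 79.9 CPM in Ang II, with no overlap and a log2 fold change of -0.58 (SE 0.21, edgeR adjusted p = 0.358). Without miR-214-/- sham replicate 3, the Dnajb1 value was -0.34.

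Hspa8 had 1970, 1846 and 2530 CPM in miR-214-/- sham and 1284, 1759 and 1638 CPM in Ang II, again without overlap, with a log2 fold change of -0.43 (SE 0.19, edgeR adjusted p = 0.421). Hsp90aa1 had 573, 662 and 944 CPM in sham and 621, 476 and 468 CPM in Ang II, which overlap, with a log2 fold change of -0.47 (SE 0.21, edgeR adjusted p = 0.432), or -0.24 without sham replicate 3. The values for the mitochondrial pair were -0.20 (SE 0.21) for Hspd1, with -0.43 to -0.07 when each library was left out, and -0.07 (SE 0.19) for Hspe1, and that of Hspa4 was 0.07 (SE 0.07).

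For Hspa1a and Hspa1b the direction in miR-214-/- rested on replicate 1 of Ang II. The log2 fold changes were 1.52 (SE 1.10, edgeR adjusted p = 0.596) and 1.07 (SE 1.10, edgeR adjusted p = 0.712), and without that library they were -1.11 and -1.33 (edgeR adjusted p = 0.359 and 0.408). DESeq2 gave neither gene a p-value here. Replicate 1 had the lowest T cell marker sum of its group, 4118 CPM against 5786 and 5479 in replicates 2 and 3. Its cell cycle sum was the highest, 2086 CPM against 1103 and 1157. Its neutrophil and red-cell precursor sums lay between those of the other libraries. The part of these lists in the Hspa1a and Hspa1b values was not tested.

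By edgeR, 0 of 10 members passed in miR-214-/-, where 0% of the 15937 tested genes did. At an unadjusted p under 0.05 there were 3 members (Hsph1, Dnajb1 and Hsp90ab1), against 12.2% of tested genes. By DESeq2, 2 of the 8 members with a p-value passed, against 2.13% of its tested genes. In 4 members (Hspa8, Hsph1, Dnajb1 and Hsp90ab1) every Ang II library lay below every sham library, which held for 10.5% of tested genes, and in 0 members did every Ang II library lie above, which held for 8.86%. The median log2 fold change of the 10 members was -0.32, and that of all tested genes was 0.03. Immediate early genes summed to 2100 to 2472 CPM in miR-214-/- sham and 1516 to 1768 in Ang II, which also do not overlap. In WT they summed to 1996 to 2892 CPM in sham and 1479 to 1584 in Ang II, again without overlap. In WT 4 of 12 fell by edgeR and 4 by DESeq2, against 18.8% and 22.1% of tested genes that passed. In miR-214-/- 0 fell by edgeR and 5 by DESeq2, against 0% and 2.13%. The median log2 fold change of these 12 genes was -0.47 in WT and -0.57 in miR-214-/-. Their part in the chaperone levels was not tested.

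**Figure D4:**
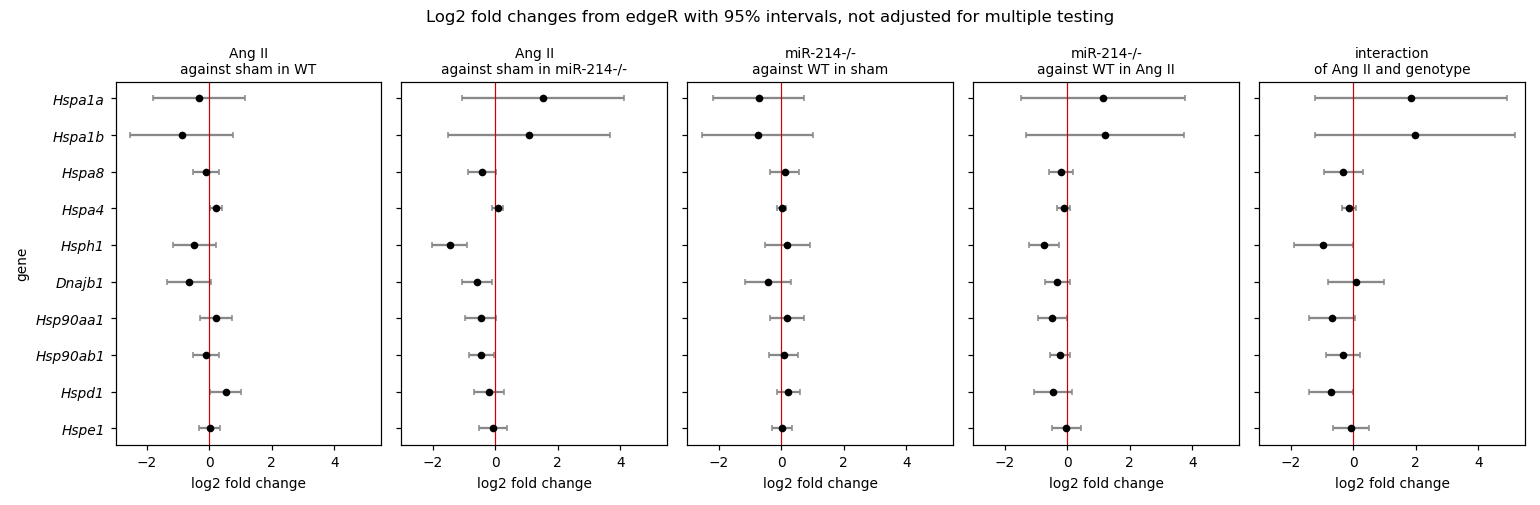
Log2 fold changes of the 10 chaperone genes in the 5 comparisons from edgeR, with lines for the 95% interval of each gene, not adjusted for multiple testing. Hsph1 in miR-214-/- lies at -1.45 with an interval from -2.01 to -0.89, and the intervals of Hspa1a and Hspa1b are the widest in every panel.

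In WT T cells, 4 members had a positive and 6 a negative log2 fold change under Ang II. Hspd1, the mitochondrial HSP60 gene, had 203, 259 and 279 CPM in WT sham and 243, 407 and 400 CPM in WT Ang II. Replicates 2 and 3 of Ang II stood above all sham libraries and replicate 1 lay among them. The log2 fold change was 0.52 (SE 0.21, 95% interval 0.03 to 1.02, edgeR adjusted p = 0.124). Hspd1 rose by DESeq2 (adjusted p = 0.0340), and by edgeR without WT Ang II replicate 1, where the log2 fold change was 0.73 (adjusted p = 0.0108). That library had the highest summed neutrophil (3401 CPM) and red-cell precursor (5828 CPM) levels of its group. It also had the highest T cell marker sum, 4249 CPM against 4049 and 3581 in replicates 2 and 3. Its cell cycle sum was the lowest, 2086 CPM against 2590 in both other libraries. The part of these lists in the Hspd1 value was not tested. The summed level of 16 cell cycle genes was 637 to 793 CPM in WT sham and 2086 to 2590 in WT Ang II, and its part in the Hspd1 values was not tested.

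Hspa4 had 228, 246 and 262 CPM in WT sham and 260, 283 and 298 CPM in WT Ang II, which overlap by a small margin, with a log2 fold change of 0.21 (SE 0.08, edgeR adjusted p = 0.108). Hspe1, the co-chaperonin gene, had 101, 120 and 142 CPM in sham and 102, 134 and 123 CPM in Ang II, and a log2 fold change of 0.01 (SE 0.14, 95% interval -0.33 to 0.34). Partners in the mitochondrion thus had different values in WT, although the difference between these genes was not tested.

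Dnajb1 had 150, 142 and 309 CPM in WT sham and 110, 150 and 115 CPM in WT Ang II. Its log2 fold change was -0.66 (SE 0.30, edgeR adjusted p = 0.164), and without the high WT sham replicate 3 it was -0.21. Hsph1 had 194, 309 and 421 CPM in WT sham and 167, 287 and 201 CPM in WT Ang II, with a log2 fold change of -0.48 (SE 0.29, edgeR adjusted p = 0.288), or -0.19 without WT sham replicate 3. Both genes overlapped between the groups. The remaining values were 0.22 (SE 0.21, and 0.10 to 0.45 when each library was left out) for Hsp90aa1, -0.11 (SE 0.17) for Hsp90ab1, -0.11 (SE 0.18) for Hspa8, -0.32 (SE 0.62) for Hspa1a and -0.89 (SE 0.70) for Hspa1b. Without WT sham replicate 3, Hspa1a was at 0.42 and Hspa1b at 0.15.

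By edgeR, 0 of 10 members passed in WT, where 18.8% of 16012 tested genes did. At an unadjusted p under 0.05 there were 2 (Hspa4 and Hspd1), against 35.6% of tested genes, and DESeq2 passed 1 of 10, against 22.1% of its tested genes. No member had Ang II libraries all above or all below the sham libraries, which held for 19.1% and 22% of tested genes. The median log2 fold change of the members was -0.11 against -0.02 for all tested genes.

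Between genotypes without Ang II, no chaperone gene passed either test. In miR-214-/- sham against WT sham, the 8 members other than Hspa1a and Hspa1b had log2 fold changes from -0.42 (Dnajb1, SE 0.31, 95% interval -1.16 to 0.31) to 0.23 (Hspd1, SE 0.15, 95% interval -0.13 to 0.59). Without WT sham replicate 3 the Dnajb1 value was 0.028. Between these lay Hsph1 (0.20), Hsp90aa1 (0.19), Hspa8 (0.11), Hsp90ab1 (0.08) and Hspe1 (0.03), and all 5 turned negative without miR-214-/- sham replicate 3. Hspa1a and Hspa1b had -0.72 (SE 0.63) and -0.76 (SE 0.76), and 0.017 and 0.28 without WT sham replicate 3. Hspa4 had the narrowest interval, from -0.15 to 0.17 around a log2 fold change of 0.01. By edgeR 0 of 10 passed, where 0.0251% of tested genes did, and 0 had an unadjusted p under 0.05, against 6.67%. DESeq2 passed 0 of 10, against 0.603%. All 10 members overlapped between the groups, where 5.39% of tested genes were higher and 4.79% lower in every miR-214-/- library. The intervals of the other genes leave room for differences, for example from -0.52 to 0.92 for Hsph1.

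Under Ang II, Hsph1 and Hsp90ab1 were lower in all 3 miR-214-/- libraries than in all 3 WT libraries. For Hsph1 the log2 fold change between genotypes was -0.75 (SE 0.20, 95% interval -1.23 to -0.28, unadjusted p = 0.00755, edgeR adjusted p = 0.569, DESeq2 adjusted p = 0.0975). For Hsp90ab1 it was -0.24 (SE 0.13, edgeR adjusted p = 0.584) and for Hsp90aa1 -0.48 (SE 0.19, edgeR adjusted p = 0.569), with overlap. Hspd1 had -0.47 (SE 0.25), Dnajb1 -0.32 (SE 0.17), Hspa8 -0.20 (SE 0.16), Hspa4 -0.11 (SE 0.09) and Hspe1 -0.02 (SE 0.19), each with overlap. Hspa1a and Hspa1b had 1.14 (SE 1.10) and 1.22 (SE 1.06), and without miR-214-/- Ang II replicate 1 -1.49 and -1.18. By edgeR 0 of 10 passed, where 0% of tested genes did, and 2 had an unadjusted p under 0.05 (Hsph1 and Hsp90aa1), against 8.56%. DESeq2 gave no p-value for Hspa1a and Hspa1b and passed 0 of the other 8, against 0.224%. The 2 members lower without overlap compare with 5.94% of tested genes, and 0 members were higher without overlap, against 8.01%. The comparison shares its libraries with the Ang II comparisons above and is not independent of them.

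The interaction of Ang II and genotype asks whether the Ang II effect itself differed between genotypes. For Hsph1 it was -0.96 on the log2 scale (SE 0.43, 95% interval -1.90 to -0.02, unadjusted p = 0.0457, edgeR adjusted p = 0.329), or -0.63 without miR-214-/- sham replicate 3. For Hspd1 it was -0.71 (SE 0.33, edgeR adjusted p = 0.344) and for Hsp90aa1 -0.68 (SE 0.33, edgeR adjusted p = 0.367). Hsp90ab1 had -0.33 (SE 0.25), Hspa8 -0.31 (SE 0.28), Hspa4 -0.12 (SE 0.10), Hspe1 -0.06 (SE 0.26) and Dnajb1 0.09 (SE 0.41). The values of 1.85 (SE 1.40) for Hspa1a and 1.96 (SE 1.46) for Hspa1b turned to -0.77 and -0.42 without miR-214-/- Ang II replicate 1. By edgeR 0 of 10 members passed, where 0.00596% of 16770 tested genes did, 1 had an unadjusted p under 0.05 (Hsph1), against 14.8%, and DESeq2 passed 0 of 10, against 3.22%. A difference of the chaperone response between WT and miR-214-/- was therefore not shown for any member.

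Of the wider chaperone network, 8 lists with 81 genes in all were examined. In miR-214-/- under Ang II, edgeR passed 0 of 74 tested genes of the lists, where 0% of all tested genes passed, and 14 had an unadjusted p under 0.05, where 12.2% of all did. DESeq2 called 5 of 14 HSP90 co-chaperone genes, all lower, where it called 2.13% of all its tested genes. Stip1, which links HSP70 to HSP90, had a log2 fold change of -0.85 (SE 0.15, edgeR adjusted p = 0.218), and Fkbp4, an HSP90-binding immunophilin, had -0.51 (SE 0.10, edgeR adjusted p = 0.218). The others that DESeq2 called were Ahsa2 (-0.93), Chordc1 (-0.78) and Ahsa1 (-0.52), of which Ahsa1 codes for the activator of HSP90 ATPase. In WT the same genes had -0.22 for Stip1, -0.07 for Fkbp4, -0.25 for Ahsa2, -0.37 for Chordc1 and -0.05 for Ahsa1, none of which passed by edgeR or DESeq2. Interaction values were -0.62 for Stip1 (edgeR adjusted p = 0.347) and -0.66 for Ahsa2 (edgeR adjusted p = 0.336), so a difference between genotypes was not shown for them.

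**Figure D5:**
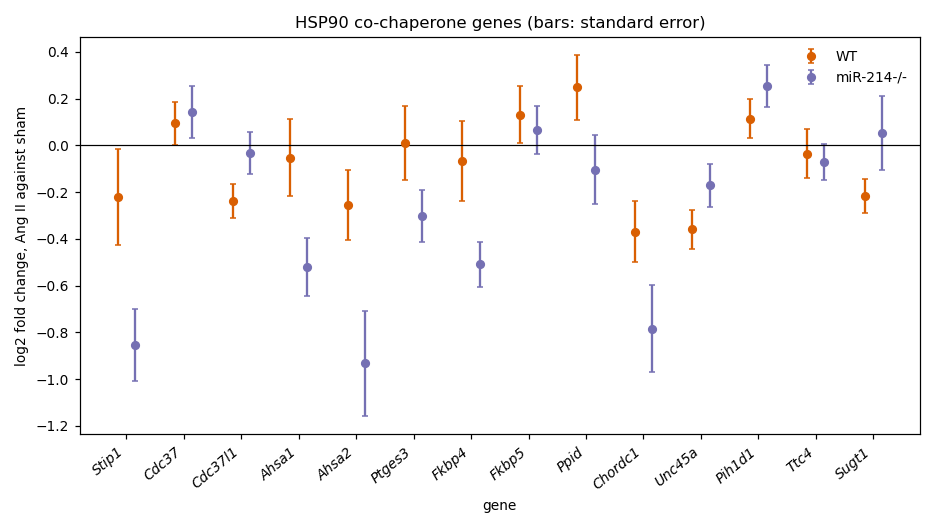
Log2 fold changes of 14 HSP90 co-chaperone genes under Ang II in each genotype, from edgeR, with bars for the standard error. Stip1, Ahsa1, Ahsa2, Fkbp4 and Chordc1 lie between -0.93 and -0.51 in miR-214-/-, and none of the 14 passed the edgeR test there.

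Hsf1, the gene of the main heat shock factor, fell with Ang II in WT (log2 fold change -0.31, SE 0.08, edgeR adjusted p = 0.0461, DESeq2 adjusted p = 0.0563). The heat shock factor list had 4 tested genes, which were Hsf1, Hsf2, Hsf4 and the factor-binding protein gene Hsbp1. Hsf1 was the only edgeR pass among them, where 18.8% of all tested genes passed. In miR-214-/- the Hsf1 value was -0.35 (SE 0.07, edgeR adjusted p = 0.224, DESeq2 adjusted p = 0.0470), so the direction was the same in both genotypes. Of 13 genes for J-proteins of cytosol and nucleus, 1 fell by edgeR in WT, Dnajc7 (-0.26, SE 0.07), beside 18.8% of all tested genes that passed. In miR-214-/- 0 did, beside 0%. In miR-214-/- the J-protein genes with the smallest p were Dnaja4 (-0.57, edgeR adjusted p = 0.218) and Dnaja1 (-0.72, edgeR adjusted p = 0.294), both lower by DESeq2. Dnaja1 was lower by DESeq2 in WT too (-0.53, edgeR adjusted p = 0.0857, DESeq2 adjusted p = 0.0223). Of all its tested genes, DESeq2 called 2.13% in miR-214-/- and 22.1% in WT.

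Of 8 further HSP70 family genes, 3 rose by edgeR in WT, where 18.8% of all tested genes passed, and 0 in miR-214-/-, where 0% did. They were Hspa2 (log2 fold change 0.88, SE 0.19), Hspa4l (0.59, SE 0.16) and Hspa13 (0.53, SE 0.11). In the interaction, DESeq2 called Hspa13 (-0.62, DESeq2 adjusted p = 0.00595, edgeR adjusted p = 0.213) and Hspa4l (-1.03, DESeq2 adjusted p = 0.0435, edgeR adjusted p = 0.233), and edgeR called neither. DESeq2 called 3.22% of all its tested genes in the interaction. Of 8 HSP70 exchange factors and cofactors, Bag2 (1.92, SE 0.37) and Bag1 (0.41, SE 0.09) rose in WT, and 0 passed by edgeR in miR-214-/-. The smallest p there belonged to St13 (-0.41, edgeR adjusted p = 0.266) and Bag3 (-0.27, edgeR adjusted p = 0.413). St13 was lower by DESeq2 (DESeq2 adjusted p = 0.0454), which called 2.13% of all its tested genes there. Of 11 mitochondrial chaperone genes, the protease gene Htra2 rose in WT (1.01, SE 0.23). Among 14 genes of the CCT chaperonin and prefoldin, Pfdn5 alone passed by edgeR and fell in WT (-0.30, SE 0.06). The median log2 fold change of that list in WT was 0.21, and Tcp1 rose by DESeq2 alone (0.38, DESeq2 adjusted p = 0.0271, edgeR adjusted p = 0.0701). DESeq2 called 22.1% of all its tested genes in WT. Of 14 HSP90 co-chaperones, Unc45a fell in WT (-0.36, SE 0.08). Of 9 small heat shock protein genes only 2 were expressed enough to be tested in WT, and 0 passed. In all, 6 of 73 tested genes of the lists rose and 4 fell in WT, beside 18.8% of all tested genes that passed there, and 0 passed by edgeR in miR-214-/- or in the other 3 comparisons.

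The genes whose level over the 12 libraries was most like the mean log2 CPM of the 10 chaperone genes, among 9769 genes with a mean log2 CPM over 3, were Wdr4 (r = 0.855), the pseudogene Ptges3-ps (r = 0.843), Ptges3 (r = 0.790), Cacybp (r = 0.782) and Rfng (r = 0.764). Ptges3 codes for the HSP90 co-chaperone p23 and shares sequence with Ptges3-ps. Cacybp had 127.6 CPM in WT sham replicate 3 and 119 CPM in miR-214-/- sham replicate 3, the highest of each group. For the summed counts of Hspa1a and Hspa1b the most alike were Cdk5r1 (r = 0.742), Gpr155 (r = 0.739), Gpm6b (r = 0.721), Yif1b (r = 0.705) and Phykpl (r = 0.701). The first 4 had their highest level in miR-214-/- Ang II replicate 1, and Phykpl had 30.7 CPM there and 30.8 CPM in WT sham replicate 1. That is the library in which the summed Hspa1a and Hspa1b level was 119.8 CPM. These correlations are descriptions over libraries that share depth and group, and are given without a test.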

How the data were processed

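RNASeq was made from splenic T cells of 3 mice in each of 4 groups. Per the labels and the study's methods, the authors mapped paired reads to GRCm38 with STAR and counted unique hits per gene with featureCounts of Subread 1.5.2. The deposited values are raw counts, not normalized. The strand setting of the counting was not given in the sources used here. Of 49315 identifiers, 49056 matched GENCODE symbols.

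Counts were analysed with edgeR 4.0.16 in R 4.3.3 on the whole table. The filterByExpr filter, TMM scaling and the quasi-likelihood test were applied to the libraries of each comparison, with Benjamini-Hochberg adjustment over all genes tested and a threshold of 0.05. A fold change over 1 on the log2 scale was counted as an added condition. DESeq2 1.42.0, the tool of the study, was the main alternative. Others were RLE scaling, library size alone, other filters on low counts, 1 fit over 4 groups, adjusted deviances, the replicate number as a block, Hspa1a and Hspa1b summed, and leaving out each library. The pipeline was tested on simulated data. Log2 CPM used a prior count of 2, and intervals are 95% intervals from the same fit. Replicate libraries differed by more than counting noise, with a chi-square per degree of freedom of at least 10.7. An exact permutation test of 3 against 3 cannot go below 0.1 and was not used.

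All 10 members were named in every comparison. From each wider list, genes that passed were named, up to 3 per direction, or else those with the smallest p. Genes called by DESeq2 alone were named after their values were seen. The members, the lists and the gene pairs were chosen with earlier results of these data known.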

Additional observations from a re-analysis of the deposited data

How the results depend on the processing

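Of the comparisons, 2 gave another count of members past the threshold under an alternative. In WT the count of 0 became 1 with DESeq2 and with the replicate block, and it was between 0 and 1 when each library was left out. The gene was Hspd1 each time, with an adjusted p of 0.0335 in the block fit. In miR-214-/- the count of 0 became 2 with DESeq2. The replicate numbers do not pair the samples, since deviations of same-numbered libraries had correlations from -0.56 to 0.34, so the block is given here only, and it changed no other call. It moved the miR-214-/- against WT value in Ang II to -0.35 for Hspa1a and -0.14 for Hspa1b, and the fit over 4 groups moved Hspe1 in WT to -0.014. Without leaving out libraries, 419 values of single members kept their direction and side of the threshold, 3 reversed and 4 passed in addition. With a library left out, 320 did so, 39 reversed and 1 passed.

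Leaving out a library reversed the sign of values that were not past the threshold, whose ranges of log2 fold changes follow. For Ang II in WT they were -0.77 to 0.42 for Hspa1a, -1.34 to 0.15 for Hspa1b, -0.27 to 0.065 for Hspa8, -0.27 to 0.070 for Hsp90ab1 and -0.11 to 0.13 for Hspe1. For Ang II in miR-214-/- they were -1.11 to 2.03 for Hspa1a, -1.33 to 1.98 for Hspa1b and -0.18 to 0.10 for Hspe1. Between genotypes in sham they were -1.23 to 0.017 for Hspa1a, -1.67 to 0.28 for Hspa1b, -0.049 to 0.29 for Hspa8, -0.034 to 0.056 for Hspa4, -0.12 to 0.49 for Hsph1, -0.66 to 0.028 for Dnajb1, -0.042 to 0.42 for Hsp90aa1, -0.070 to 0.27 for Hsp90ab1 and -0.077 to 0.16 for Hspe1. Between genotypes in Ang II they were -1.49 to 1.66 for Hspa1a, -1.18 to 1.72 for Hspa1b and -0.13 to 0.16 for Hspe1. For the interaction they were -0.77 to 2.36 for Hspa1a, -0.42 to 2.88 for Hspa1b, -0.36 to 0.33 for Dnajb1 and -0.20 to 0.11 for Hspe1. The cause was not tested. With 3 mice per group the intervals are wide. Over all genes, replicate libraries differed by more than counting noise, with a chi-square per degree of freedom of at least 10.7. The share of counting error in the interval of each member was not computed.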
